A study of Rattus norvegicus with 4 samples.

Results

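Mucolipins, two-pore channels, the chloride-proton exchanger ClC-7 and the lysosomal proteins that work with them were followed in surface colonocytes of rats given aldosterone or vehicle. The list held 10 genes: Mcoln1, Mcoln2, Mcoln3, Tpcn1, Tpcn2, Clcn7, Ostm1, Tfeb, Lamp1 and Lamp2. A gene counted as measured when a row of the array carried its symbol and no other, and the row with the highest mean was used. Of the 10 genes, 8 were measured, each by 1 row, among 13215 named genes on 19403 rows. Mcoln1 and Ostm1 had no such row and were not analysed here. The genes were chosen by their known roles and, for Mcoln2, selected on its difference between the same arrays, so the values of that gene are a description and carry no test.

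The cells are absorptive epithelial cells facing the lumen of the distal colon, from Wistar rats 12 weeks old. All rats, controls included, lacked both adrenal glands and had drunk 0.9% NaCl for 4 days. One group of 2 rats received aldosterone for 2 h, as 50 µg per 100 g body weight under the skin and a minipump set to 10 µg per kg and hour, and the solution in which their cells came loose during 40 min of shaking held 100 nM of it. The other group of 2 rats received the vehicle by the same routes and in the bath. Each rat gave 1 Affymetrix exon array, and levels are the log2 expression values deposited for it.

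Mucolipins (TRPML channels) are cation channels of endosomes and lysosomes that let calcium and metal ions out of these organelles and are opened by the lipid PI(3,5)P2. Two-pore channels pass sodium and calcium across the same membranes and respond to PI(3,5)P2 and to the messenger NAADP. Calcium leaving through TRPML1 activates calcineurin, which lets TFEB, the transcription factor of lysosomal genes, enter the nucleus, where it binds sites built around the letters CACGTG. ClC-7 with its subunit Ostm1 exchanges chloride for protons across the lysosomal membrane, and LAMP1 and LAMP2 are the main glycoproteins of that membrane. Most of what is known of TRPML2, the product of Mcoln2, comes from mouse and human immune cells, while TRPML1 and TRPML3 have been studied in the vacuoles of enterocytes of newborn mice.

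The promoter windows of Lamp1 and Clcn7 are shown because they are the measured genes of the list that hold the core letters of a TFEB site. The windows come from RefSeq on build GRCr8, run from 250 bases before to 50 bases after the gene start, and matched 9 of the 10 listed genes, all except Mcoln2. Capitals mark CACGTG, which reads the same on both strands. The Lamp1 window is chr16:83075014-83075313 on the minus strand and the Clcn7 window is chr10:14656011-14656310 on the plus strand.
Lamp1: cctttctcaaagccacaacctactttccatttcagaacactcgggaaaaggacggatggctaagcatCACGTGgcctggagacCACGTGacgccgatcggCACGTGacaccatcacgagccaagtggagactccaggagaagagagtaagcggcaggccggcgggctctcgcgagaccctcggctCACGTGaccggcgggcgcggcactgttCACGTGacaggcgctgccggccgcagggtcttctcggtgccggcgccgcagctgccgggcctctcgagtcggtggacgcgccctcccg
Clcn7: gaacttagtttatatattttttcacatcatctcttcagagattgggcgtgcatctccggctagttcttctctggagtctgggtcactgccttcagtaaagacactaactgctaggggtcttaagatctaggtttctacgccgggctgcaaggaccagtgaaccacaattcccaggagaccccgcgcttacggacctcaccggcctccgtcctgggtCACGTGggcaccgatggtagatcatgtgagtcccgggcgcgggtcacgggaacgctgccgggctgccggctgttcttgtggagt

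The letters CACGTG stood 5 times in the Lamp1 window, starting at bases 68, 84, 101, 186 and 213 counted from 1 at the 5′ end. Of all 33469 RefSeq windows of this length, 6.42% held the motif at least once and 1, that of Lamp1, held it at least 5 times. The Clcn7 window held it 1 time, at base 217, and the window of the unmeasured Mcoln1 2 times. The windows of Mcoln3, Tpcn1, Tpcn2, Tfeb, Lamp2 and Ostm1 did not hold these letters. The palindrome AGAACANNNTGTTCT, bound by corticosteroid receptors, was in 0 of the 9 windows on either strand and in 0.0149% of all windows. One arm of it, AGAACA, was in 4 of the 9 windows and in 20.7% of all windows on either strand. A match describes letters in a window and not a bound site.

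Among the mucolipins, Mcoln2 stood far higher in the aldosterone rats and Mcoln3 lay near the floor of the array. Mcoln2 (row 7200466) stood at 6.74 and 6.39 in the aldosterone rats, against 4.05 and 4.43 in the vehicle rats. Both aldosterone values were high and both vehicle values low, and the lower aldosterone value exceeded the higher vehicle value by 1.96 on the log2 scale. The group means were 6.57 ± 0.25 in aldosterone rats and 4.24 ± 0.27 in vehicle rats (SD, n = 2 each), a log2 difference of 2.33 or 5.02-fold, with a 95% interval of the fit from 1.76 to 2.89. Only 12 of the 19403 rows had a larger difference in either direction. Since Mcoln2 was selected on this difference, its rank and interval only describe it. In bulk RNA of this kind, more RNA per cell and more cells of a type that holds the RNA cannot be told apart.

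Mcoln3, which encodes TRPML3 (row 7200451), stood at 1.85 and 1.89 in the aldosterone rats, against 1.84 and 1.90 in the vehicle rats. These values overlapped and all lay below 2.35, the median of row means, so that no fold is given. It was the only measured gene of the list below that median, and the other 7 lay above it.

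**Figure D1:**
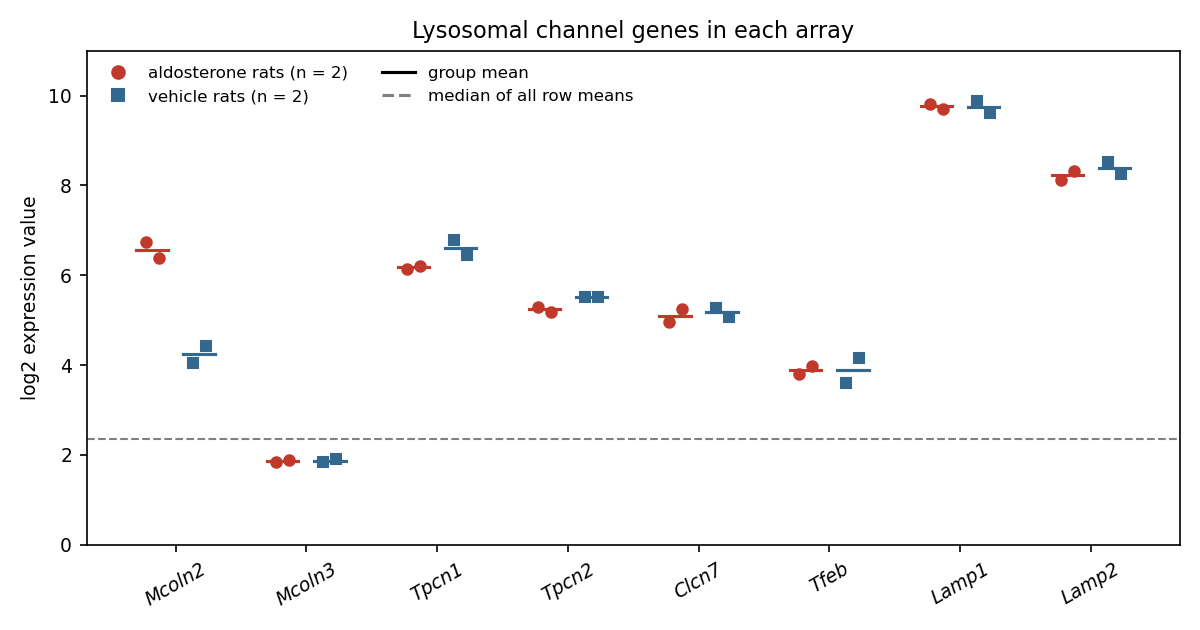
Log2 expression value of each of the 8 measured genes (y axis) in 2 aldosterone rats (red circles, left) and 2 vehicle rats (blue squares, right). Short lines are group means, and the dashed line is the median of all row means, 2.35. The Mcoln2 groups stand apart by 1.96 at their closest, and Mcoln3 lies below the dashed line in both groups.

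Both two-pore channel genes stood lower in the aldosterone rats, and neither passed the threshold. Tpcn1, which encodes the channel TPC1 (row 7098566), stood at 6.15 and 6.22 in the aldosterone rats, against 6.78 and 6.45 in the vehicle rats. The groups did not overlap and were 0.23 apart at their closest, while the vehicle arrays themselves differed more than that. The log2 difference was -0.43, with a 95% interval from -0.85 to -0.015 and an adjusted p of 1.00 in limma over all rows. Tpcn2, which encodes TPC2 (row 7059309), stood at 5.30 and 5.19 in the aldosterone rats, against 5.53 and 5.51 in the vehicle rats. These groups did not overlap either, with a gap of 0.22. Its difference was -0.28, the interval ran from -0.56 to 0.0046, and the adjusted p was 1.00 in limma. These intervals come from a constant prior spread. With a prior spread that follows expression level they ran from -1.11 to 0.25 for Tpcn1 and from -0.94 to 0.38 for Tpcn2. Groups without overlap made up 27.8% of all rows.

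Clcn7, the gene of the ClC-7 exchanger (row 7065661), stood at 4.97 and 5.24 in the aldosterone rats, against 5.28 and 5.08 in the vehicle rats. The values of the groups interleaved, and the log2 difference was -0.074 with an interval from -0.49 to 0.34. The sign turned when aldosterone replicate 1 was left out (0.062) and when vehicle replicate 1 was (0.025).

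Tfeb, the regulator of lysosomal genes (row 7359426), stood at 3.81 and 3.98 in the aldosterone rats, against 3.61 and 4.16 in the vehicle rats. Both aldosterone values lay between the vehicle values. The log2 difference was 0.014 with an interval from -0.60 to 0.63, wide enough to hold a change of 1.5-fold either way. Its direction turned with quantile normalization, at -0.0046.

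The genes of the membrane glycoproteins had overlapping groups, Lamp1 with the promoter window richest in CACGTG among them. Lamp1 (row 7153582) stood at 9.83 and 9.71 in the aldosterone rats, against 9.89 and 9.61 in the vehicle rats. Both aldosterone values again lay between the vehicle values, with a log2 difference of 0.018 (interval -0.37 to 0.41) that was -0.013 with quantile normalization. Lamp2, which encodes the LAMP2 forms including the receptor of chaperone-mediated autophagy (row 7372849), stood at 8.12 and 8.33 in the aldosterone rats, against 8.52 and 8.26 in the vehicle rats. Its groups overlapped, and the log2 difference was -0.16 with an interval from -0.58 to 0.25. Clcn7, Tfeb, Lamp1 and Lamp2 each had an adjusted p of 1.00 in limma.

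**Figure D2:**
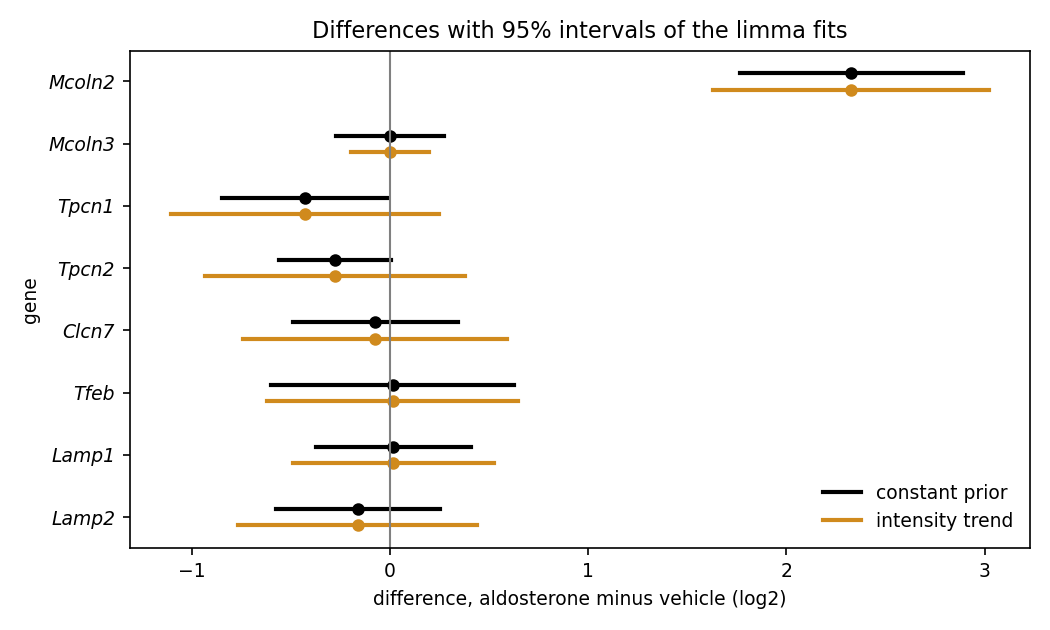
Log2 difference, aldosterone minus vehicle (x axis), of the 8 genes, with 95% intervals from limma with a constant prior spread (black) and with a prior that follows expression level (orange). The interval of Mcoln2 runs from 1.76 to 2.89 with the constant prior, and those of the other genes include 0 or, for Tpcn1 with the constant prior, end at -0.015.

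In limma with a constant prior, 0 of the 8 genes passed an adjusted p of 0.05, the share called over all rows being 0% as well (0 of 19403). At an unadjusted p under 0.05, limma held 879 rows, 4.53% of all rows. With a prior that follows expression level, 21 rows passed, 0.108% of all rows, and 0 of the 7 genes other than Mcoln2 were among them. No call is read for Mcoln2, which was selected on this difference. Of the 8 genes, 3 had groups that did not overlap. Mcoln2 stood higher among these, but it was selected on this difference, so its lack of overlap is no result. Of the 7 other genes, Tpcn1 and Tpcn2 were the 2 without overlap, and both stood lower. Over all rows 27.8% lacked overlap, 16.7% with aldosterone higher and 11.1% with aldosterone lower. The median log2 difference of the 8 genes was -0.037, against 0.024 over all rows. With 1 array left out, a single value stands for a group and more rows lack overlap. The count, Mcoln2 included, was then 3 of 8 genes beside 63.1% of all rows without aldosterone replicate 1 and 5 beside 55.9% without aldosterone replicate 2. It was 6 beside 63.3% without vehicle replicate 1 and 8 beside 73.3% without vehicle replicate 2. The median was -0.14 without aldosterone replicate 2 and -0.15 without vehicle replicate 2.

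**Figure D3:**
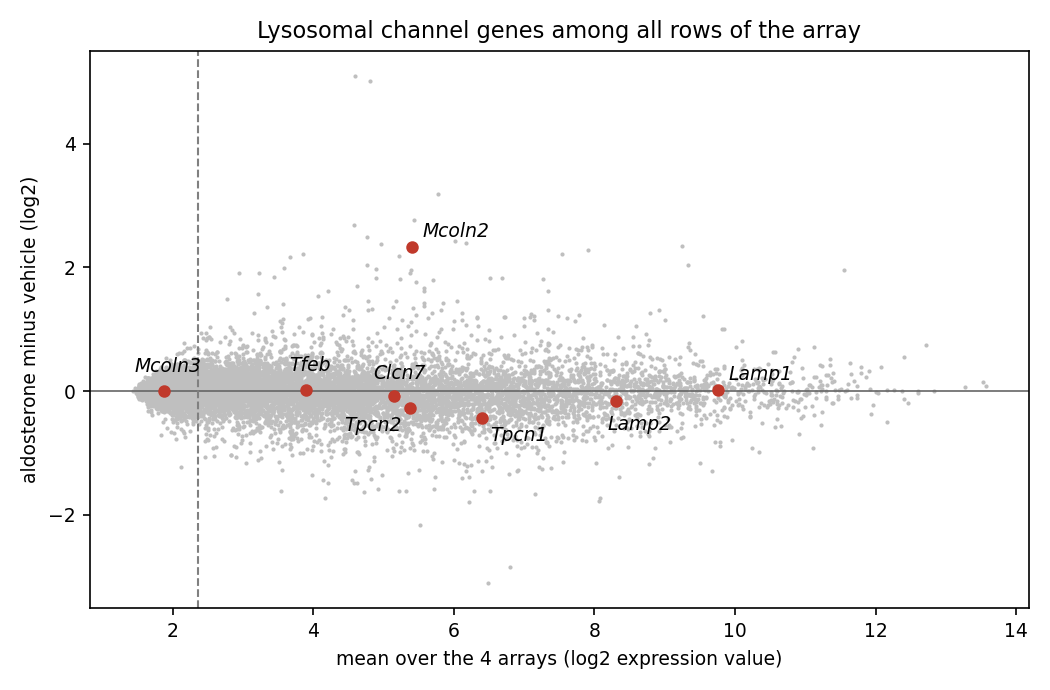
Log2 difference, aldosterone minus vehicle (y axis), against the mean over the 4 arrays (x axis) for all 19403 rows (grey) and the 8 genes (red). The dashed line is the median of row means, 2.35. Mcoln2 lies at 2.33 on the y axis and the other 7 genes between -0.43 and 0.018.

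The phosphatase and adaptor genes of PI(3,5)P2 metabolism and the genes of NAADP binding, which act on the openers of these channels, held no gene that passed. Of 8 measured genes, 0 passed in either direction with either prior, 4 stood higher without overlap and 0 lower. Over all rows 16.7% stood higher without overlap and 11.1% lower, shares that belong beside the counts of this list and of the lists below. Among the 9702 rows at or above the median of row means, 1454 stood higher without overlap and 1367 lower. The median log2 difference of these 8 genes was 0.16, and it was 0.038 without aldosterone replicate 1 and 0.0042 without vehicle replicate 2. Fig4, a PI(3,5)P2 phosphatase that also holds the kinase complex together, stood at 4.16 ± 0.095 in aldosterone rats and 3.91 ± 0.061 in vehicle rats. Jpt2, which encodes an NAADP-binding protein, stood at 3.13 ± 0.0012 in aldosterone rats and 2.89 ± 0.027 in vehicle rats.

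Other channels and exchangers of endosomes and lysosomes gave a median difference of -0.0075 over 16 measured genes, of which 0 passed, 1 stood higher without overlap and 2 lower. Slc11a2, the iron transporter DMT1, stood at 5.98 ± 0.013 in aldosterone rats and 6.60 ± 0.23 in vehicle rats, with an adjusted p of 0.860 in limma. P2rx4, an ATP-gated channel of lysosomes and the cell surface, stood at 8.50 ± 0.13 in aldosterone rats and 8.35 ± 0.032 in vehicle rats. Tmem165, a Golgi and lysosomal ion transporter, stood at 6.50 ± 0.023 in aldosterone rats and 6.61 ± 0.12 in vehicle rats.

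The proton pump that acidifies lysosomes, the V-ATPase, had 20 measured subunit genes, of which 0 passed, 4 stood higher without overlap and 2 lower, with a median difference of 0.085. Atp6v1f, a subunit of the cytosolic domain, stood at 8.22 and 9.11 in the aldosterone rats, against 7.49 and 7.72 in the vehicle rats. It was the largest difference among the 7 related lists, at 1.06 on the log2 scale, with an adjusted p of 1.00 in limma and a spread between the aldosterone arrays almost as large. Atp6v0e1, a membrane-domain subunit, stood at 5.78 ± 0.34 in aldosterone rats and 5.13 ± 0.016 in vehicle rats. Atp6v0c, the proteolipid ring subunit, stood at 10.30 ± 0.29 in aldosterone rats and 10.53 ± 0.0052 in vehicle rats, and Tcirg1, a membrane-domain subunit known from osteoclasts, at 2.75 ± 0.15 in aldosterone rats and 2.87 ± 0.0034 in vehicle rats.

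TFEB is held in the cytosol by the mTORC1 kinase with the Rag proteins and freed by calcineurin, and the genes of these and of the TFEB relatives numbered 18 measured, of which 0 passed, 6 stood higher without overlap and 1 lower. Their median difference was 0.052. Fnip2, a partner of folliculin, stood at 5.44 ± 0.43 in aldosterone rats and 4.74 ± 0.19 in vehicle rats. Lamtor3, a subunit of the Ragulator anchor of the Rag proteins, stood at 5.36 ± 0.19 in aldosterone rats and 4.93 ± 0.35 in vehicle rats. Rptor, the mTORC1 scaffold raptor, stood at 2.99 ± 0.078 in aldosterone rats and 3.15 ± 0.087 in vehicle rats.

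Lysosomal enzymes and other lysosomal proteins, many of them TFEB targets, had 49 measured genes, of which 0 passed, 5 stood higher without overlap and 5 lower, with a median difference of -0.032. Smpd1, the acid sphingomyelinase, stood at 6.35 ± 0.083 in aldosterone rats and 5.72 ± 0.37 in vehicle rats, and Acp2, a lysosomal acid phosphatase, at 4.22 ± 0.23 in aldosterone rats and 3.69 ± 0.019 in vehicle rats. Manba, the beta-mannosidase, stood at 6.15 ± 0.19 in aldosterone rats and 6.50 ± 0.16 in vehicle rats, and Galns, a sulfatase of glycosaminoglycans, at 3.46 ± 0.033 in aldosterone rats and 3.80 ± 0.19 in vehicle rats. Autophagy genes gave a median difference of 0.061 over 24 measured, of which 0 passed, 3 stood higher without overlap and 2 lower. Among them Atg7, an enzyme of autophagosome formation, stood at 5.81 ± 0.055 in aldosterone rats and 5.59 ± 0.12 in vehicle rats, and Rab7a, the GTPase of late endosomes, at 9.44 ± 0.0044 in aldosterone rats and 9.29 ± 0.14 in vehicle rats. Vps11, a tethering subunit of lysosome fusion, stood at 4.82 ± 0.13 in aldosterone rats and 5.09 ± 0.059 in vehicle rats, and Rubcn, a brake on autophagy, at 4.35 ± 0.087 in aldosterone rats and 4.45 ± 0.049 in vehicle rats.

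The TRP channels outside the mucolipins, some of which are also endolysosomal channels counted above, had 21 measured genes, of which 0 passed, 2 stood higher without overlap and 3 lower. Only 8 of them lay above the median of row means, and the median difference was 0.057. Trpm6, a magnesium channel of the colon, stood at 7.50 ± 0.30 in aldosterone rats and 6.84 ± 0.068 in vehicle rats. Trpc1, a subunit of calcium-permeable channels, stood at 3.11 ± 0.043 in aldosterone rats and 3.69 ± 0.020 in vehicle rats (difference -0.58, adjusted p of 0.711 in limma), and Trpm4, a calcium-activated sodium channel, at 6.05 ± 0.42 in aldosterone rats and 6.56 ± 0.15 in vehicle rats. The intensity trend called 0 genes in any of these 7 lists, and the medians of 6 of the 7 turned sign when 1 array or another was left out.

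**Figure D4:**
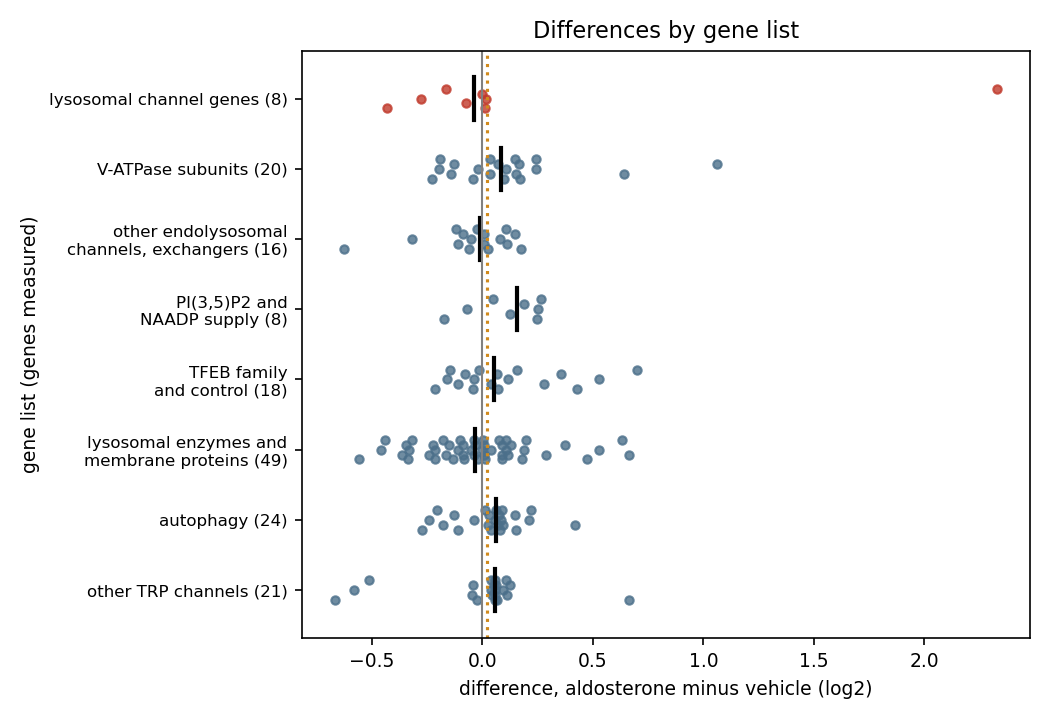
Log2 difference, aldosterone minus vehicle (x axis), of each measured gene (points) in the lysosomal channel list (red) and in 7 related lists (blue), with the list median (black bar) and the median of all rows, 0.024 (dotted line). The numbers on the y axis are genes measured, Mcoln2 is the red point at 2.33, and the rightmost blue point is Atp6v1f at 1.06.

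Mcoln2 and Mcoln3 lie close to each other on rat chromosome 2, where RefSeq lists the protein-coding genes Syde2, Mcoln3, Dnai3, Mcoln2, Lpar3, Ssx2ip and Ctbs in this order. These neighbours were chosen after their values could be seen. Dnai3, a dynein chain gene, stood at 1.93 ± 0.045 in aldosterone rats and 1.89 ± 0.079 in vehicle rats, and Lpar3, a lysophosphatidic acid receptor gene, at 2.24 ± 0.015 in aldosterone rats and 2.21 ± 0.45 in vehicle rats, so that the direct neighbours of Mcoln2 lay near the floor in both groups. Syde2 stood at 5.13 and 5.45 in the aldosterone rats, against 4.86 and 4.49 in the vehicle rats, a difference of 0.61 with an adjusted p of 1.00 in limma. Ssx2ip stood at 2.73 ± 0.18 in aldosterone rats and 3.05 ± 0.43 in vehicle rats, and Ctbs, the lysosomal chitobiase, at 7.23 ± 0.28 in aldosterone rats and 7.11 ± 0.15 in vehicle rats.

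The genes whose pattern over the 4 arrays came nearest to that of Mcoln2 were found by Euclidean distance between log2 values, each gene centred on its own mean, over 4131 other genes with a mean of 4 or more. With so few arrays this ranks genes with a like difference and a like order of the rats, and says nothing of shared control. The nearest was Noct, the deadenylase-like protein nocturnin, at a distance of 0.24, which stood at 6.36 and 6.26 in the aldosterone rats, against 3.90 and 4.36 in the vehicle rats. Klhl42, a ubiquitin ligase adaptor gene, followed at 0.29 with 6.35 and 5.66 in the aldosterone rats, against 3.32 and 3.70 in the vehicle rats. Tsc22d3, which encodes the corticosteroid-induced protein GILZ, lay at 0.30, Hif3a at 0.34 and Tle4, a corepressor gene, at 0.38. The cut at a mean of 4 was taken over both groups. Klhl42 and Hif3a, with vehicle means of 3.51 and 3.78, passed it only through their aldosterone arrays. Of the 5, Tsc22d3 belongs to the well-known corticosteroid-induced genes taken as a check of the labels. Those 5 check genes, Scnn1g, Sgk1, Tsc22d3, Fkbp5 and Per1, each stood higher in both aldosterone rats than in both vehicle rats. The log2 difference was 1.95 for Sgk1, 2.35 for Tsc22d3 and 1.35 for Per1, beside 2.33 for Mcoln2. No size is given for Scnn1g or Fkbp5, whose vehicle values were under 2.35, the median over all rows.

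**Figure D5:**
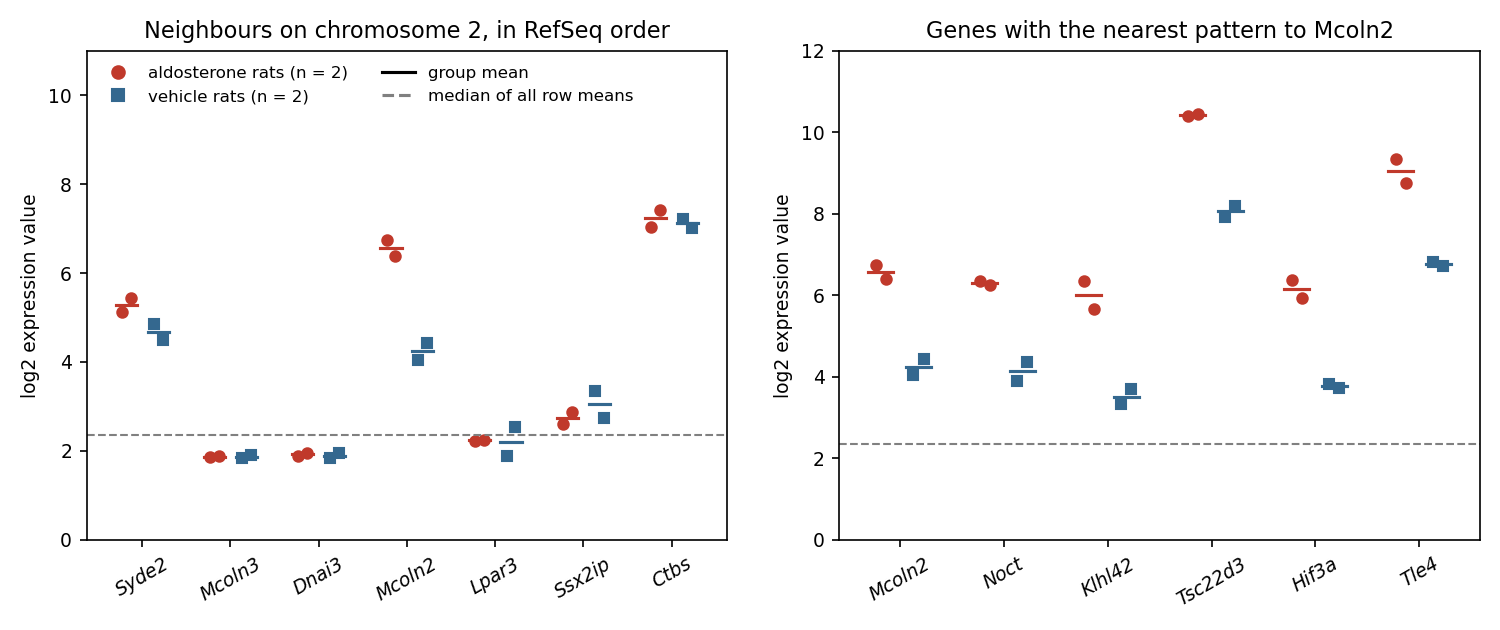
Log2 expression value (y axes) in 2 aldosterone rats (red circles, left) and 2 vehicle rats (blue squares, right) for 7 genes in chromosome order around Mcoln2 (left panel) and for Mcoln2 with the 5 genes of nearest pattern (right panel). Short lines are group means and the dashed line is the median of row means, 2.35. Dnai3 and Lpar3, beside Mcoln2, lie below that line in their group means. The nearest-pattern genes were picked for likeness to Mcoln2, so that their aldosterone values stand above their vehicle values by that choice.

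All 10 measured markers of surface colonocytes, the labelled cell type, lay above the median of row means. The highest were Slc26a3, with a mean of 12.40 over all arrays, and Epcam, with 11.74. The 3 measured tuft cell markers lay above that median as well, so lying above it does not single out a cell type. Since TRPML2 is best known from immune cells, their markers are given beside Mcoln2, on the log2 of the summed linear values of each list. The B and plasma cell list (3 measured) stood at 6.08 and 5.98 in the aldosterone rats, against 5.96 and 5.60 in the vehicle rats, and its gene Ms4a1, which encodes CD20, lay below the median of row means in both groups. Cd79b of that list stood higher without overlap, at 2.98 and 3.82 in the aldosterone rats, against 2.95 and 2.86 in the vehicle rats. The T cell list (5 measured, 4 below that median) ranged from 4.34 to 4.57 in aldosterone rats and from 4.41 to 4.42 in vehicle rats. The macrophage and dendritic cell list (9 measured, 6 below that median, Csf1r, Adgre1 and Itgam among them) ranged from 11.17 to 11.37 in aldosterone rats and from 10.90 to 11.21 in vehicle rats, most of it from Cd14. Within that list Mrc1, which encodes the macrophage mannose receptor, stood lower without overlap, at 4.01 and 3.53 in the aldosterone rats, against 4.55 and 4.73 in the vehicle rats. Lyz2 of the same list stood at 3.52 and 4.19 in the aldosterone rats, against 3.60 and 3.12 in the vehicle rats. Its groups overlapped, with a difference of 0.49.

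The summed level of the surface colonocyte list ran from 14.75 to 14.80 in aldosterone rats and from 14.53 to 14.68 in vehicle rats, and that of the tuft cell list (3 measured) from 4.84 to 4.93 in aldosterone rats and from 4.70 to 4.77 in vehicle rats. The B cell, surface colonocyte and tuft lists were thus slightly higher in both aldosterone rats. Most of the B cell sum came from Blnk, whose groups overlapped, at 5.81 and 5.49 in the aldosterone rats, against 5.66 and 5.23 in the vehicle rats. Of the 10 colonocyte markers, 5 stood higher without overlap and 1 lower. Slc26a3, the highest of them, had a difference of 0.55 and adds much to the gap between the sums. The goblet list (4 measured) ranged from 9.95 to 11.63 in aldosterone rats and from 10.95 to 11.29 in vehicle rats. Its gene Zg16, which encodes a lectin of goblet cell mucus, stood at 6.39 and 8.06 in the aldosterone rats, against 5.14 and 4.45 in the vehicle rats. This difference of 2.43 was close in size to that of Mcoln2, the groups did not overlap, and the adjusted p was 0.891 in limma. Tff3, the highest of the list, stood at 9.44 and 11.30 in the aldosterone rats, against 11.12 and 10.74 in the vehicle rats. Its groups overlapped, with a difference of -0.56. Agr2 had overlapping groups as well, with a difference of 0.21. Spink4 stood higher without overlap but lay below the median of row means in both groups. The enteroendocrine (6), crypt and proliferating (7), stromal and muscle (6) and endothelial (2) lists also overlapped between groups. Of the marker genes in these 10 lists 0 passed in limma with either prior, and their part in the difference of Mcoln2 was not tested.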

How the data were processed

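RNA of surface colonocytes from 2 aldosterone and 2 vehicle rats was hybridized to exon arrays, 1 per rat, so that p-values measure the spread between these rats. The values are log2 expression values deposited by the authors, with RMA, Affymetrix Expression Console and Partek named in the submitters' processing notes without role or version. Their log2 scale was read from the range, 1.36 to 13.7. The arrays' genome build is not given in the sources used here.

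Rows were named through the platform annotation, with Entrez IDs looked up in RefSeq genes of GRCr8. Of 19403 rows, 13327 had 1 symbol, 620 had several and 5456 had none, the last being unnamed here. Treatment was the only term of a linear model run on every row in limma 3.58.1 under R 4.3.3, with moderation by a constant prior, two-sided p-values, Benjamini-Hochberg adjustment over all rows and a threshold of 0.05. Python 3.11.15 and matplotlib 3.10.9 made tables and figures. Named genes are the measured members, the 2 highest and 2 lowest non-overlapping genes of each related list at or above the median of row means, 5 check genes, the 5 nearest patterns to Mcoln2 and the highest markers. The chromosome neighbours of Mcoln2 and the markers Ms4a1, Csf1r, Adgre1, Itgam, Lyz2, Spink4 and Zg16 were named outside this rule, after their values were seen. Members and lists were chosen with earlier results of these data known.

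The alternatives were a prior following expression level (intensity trend), a robust prior, quantile normalization, median centring, leaving out rows below the median of row means, the replicate number as a block and leaving out each array. The trend together with that filter or with an array left out was chosen after seeing the data. Each measured member had 1 row, so averaging over the rows of a gene changed nothing. Detection calls and depth are unknown for these values, and the number of arrays limits the precision.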

Additional observations from a re-analysis of the deposited data

How the results depend on the processing

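In limma with a constant prior 0 rows passed (of 19403, smallest adjusted p 0.332, 879 rows at an unadjusted p under 0.05), a robust prior also called 0 rows, and with low rows left out 1 passed, that of Scnn1g. The filter kept Scnn1g only through its aldosterone values, its vehicle values being 2.05 and 2.03, below the median of row means. That filter thus depended on the difference then called, so the call is no support. The intensity trend called 21 rows, and 14 with low rows left out. In both the count of members called was 1, Mcoln2, which was selected on this difference so that the count is no test, against 0 with the constant prior and 0 of the other 7 genes. With 1 array left out the constant prior called 0 rows each time. The lone array of a group is then assumed to vary like the other group. The intensity trend then called 137 rows without aldosterone replicate 1, 142 without aldosterone replicate 2, 7 without vehicle replicate 1 and 8 without vehicle replicate 2, and from 0 to 1 members. The log2 difference of Mcoln2, given as a description, ranged from 2.14 to 2.52.

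The count of members without overlap was 3, with Mcoln2, selected on its difference, among them. It was 4 with quantile normalization and ranged from 3 to 8 with 1 array left out, where 1 value stands for a group and 55.9% to 73.3% of all rows lack overlap. The median difference of the members ranged from -0.15 to -0.0089 with 1 array left out. For the lists it ranged from -0.0091 to 0.086 (V-ATPase), -0.055 to 0.066 (other endolysosomal channels), 0.0042 to 0.23 (PI(3,5)P2 and NAADP), -0.083 to 0.20 (TFEB family and control), -0.11 to 0.11 (lysosomal enzymes), -0.14 to 0.21 (autophagy) and -0.0050 to 0.10 (other TRP channels). Differences that turned sign were those of Mcoln3 (-0.027 with quantile normalization, -0.057 with centred arrays, -0.033 to 0.035 with 1 array left out), Tfeb (-0.0046, -0.044 and -0.26 to 0.29 in the same order), Lamp1 (-0.013, -0.040 and -0.12 to 0.16) and, with 1 array left out, Clcn7 (-0.21 to 0.062). Centring moved every row alike by -0.058, so it says nothing of a single gene. The cause of the other turns was not tested. Same-numbered arrays come from different rats, and the labels name no pairing between them. Their deviations correlated at 0.15 over 9702 rows, and whether the number marks a shared batch is not known. In this balanced design the replicate block cannot change a difference. The median of the members therefore stayed at -0.037, and the block called 0 rows and 0 members.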
